A study of Mus musculus with 20 samples.

Results

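The histone deacetylases described here are zinc-dependent enzymes that take acetyl groups off lysines, measured by the RNA of 10 mouse genes that were found by symbol and NCBI Gene number in both expression tables. Class I was represented by Hdac1, Hdac2, Hdac3 and Hdac8, class IIa by Hdac4, Hdac5 and Hdac7, class IIb by Hdac6 and Hdac10, and class IV by Hdac11. They are 10 of 19311 genes in a table of RPKM (reads scaled by gene length and library size) and 10 of 24454 genes in a table of CPM (reads scaled by library size), and all 10 passed the filter on low values in both. The RPKM table held M1, M2 and M3, each a single mesenchymal clone, and Py2T LT, which are Py2T mammary tumour cells, from an MMTV-PyMT mouse, that had received TGF-beta 1 at 2 ng/ml over more than 10 days. Whether TGF-beta was also present on the clones is not stated. The CPM table held M3 cells with an shRNA against Tet2 (shTet2), an shRNA against Mbd3 (shMbd3) or a control shRNA (shControl), each with 2 µM CI994 for 72 hours or without it. Every one of the 10 groups had 2 libraries, made from 2 independent experiments per the extract protocol, so all p-values measure the spread between such libraries.

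Class I enzymes are mainly nuclear and work as the catalytic subunits of repressor complexes. Hdac1 and Hdac2 sit in the NuRD, Sin3 and CoREST complexes, Hdac3 in the NCoR complex, and Hdac8 acts on the cohesin subunit Smc3. Class IIa enzymes have little deacetylase activity of their own, bind Mef2 transcription factors and leave the nucleus when kinases phosphorylate them. Hdac6 deacetylates tubulin in the cytoplasm, Hdac10 deacetylates polyamines, and Hdac11 removes long fatty acyl groups. CI994 is a benzamide inhibitor selective for class I. Mbd3 is a NuRD subunit, and Tet2 oxidises 5-methylcytosine. The series title names deacetylases, Mbd3/NuRD and Tet2 as its subject in the epithelial to mesenchymal transition.

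The CPM libraries held 16086082 to 24977595 reads, and the depth of the RPKM libraries is unknown. Among the 12 CPM libraries the targeted genes went against the label of 1. Tet2 measured 8.41 and 7.97 CPM in shTet2, against 15.1 and 13.8 CPM in shControl. Mbd3 measured 22.1 and 27.7 CPM in shMbd3, against 66.5 CPM in shControl replicate 2 but 5.40 CPM in the library labelled M3 shControl replicate 1, which goes against its label. The median log2 ratio of that library to its replicate differed by -1.75 between the deciles of genes with the highest and the lowest GC content, against -0.39 to -0.01 in the other 5 CPM pairs. It enters every comparison with untreated shControl and the spread shared by all 12 CPM libraries, so those results of the deacetylase genes, and counts over the gene lists, are also given without it, where the lone shControl library is assumed to vary like the other groups. The cells carried epithelial and mesenchymal markers in all libraries, with sums over 6 genes each of 973 to 4457 CPM and at least 4984 CPM in the M3 shRNA cells, while 4 endothelial markers summed to at most 1.12 CPM and 1.44 RPKM.

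By RPKM, Hdac2 and Hdac3 carried most of the RNA of the 10 genes described here, and the others were far lower. Together they made up 60.8% to 66.6% of the RPKM summed over the 10 genes in the clones, against 70.9% and 71.8% in Py2T LT. Because RPKM are scaled by gene length, levels of different genes can be set side by side within a library. In Py2T LT the order was Hdac2 (114 and 136 RPKM), Hdac3 (57.9 and 54.5), Hdac7 (22.3 and 24.6), Hdac6 (15.6 and 17.4) and Hdac5 (10.9 and 10.7). Below these, Hdac4 (5.74 and 5.33 RPKM) and Hdac1 (5.64 and 5.44 RPKM) overlapped each other, followed by Hdac10 (4.77 and 5.02), Hdac8 (4.15 and 4.41) and Hdac11 (1.45 and 2.06). By RPKM, Hdac1, the partner of Hdac2 in the same complexes, was thus among the lower of the 10 genes there. The CPM table, not scaled by length, gave another picture in M3 cells. Hdac1 measured 72.8 to 111.0 CPM and Hdac7 24.9 to 150.5 CPM over its 12 libraries, ranges that overlap. In M3 by RPKM, Hdac1 measured 14.1 and 13.8 and Hdac7 28.1 and 29.2. Why the tables differ in this was not tested. In M1 Hdac3 measured 91.0 and 81.5 RPKM and Hdac2 89.7 and 77.6 RPKM, ranges that overlap. In M2 and M3 Hdac2 lay above Hdac3 in every library, with ratios of 1.23 to 1.51, against 1.97 and 2.49 in Py2T LT. The ratio of Hdac2 to Hdac1 RPKM was 5.72 to 7.19 in the clones, against 20.2 and 25.0 in Py2T LT.

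**Figure D1:**
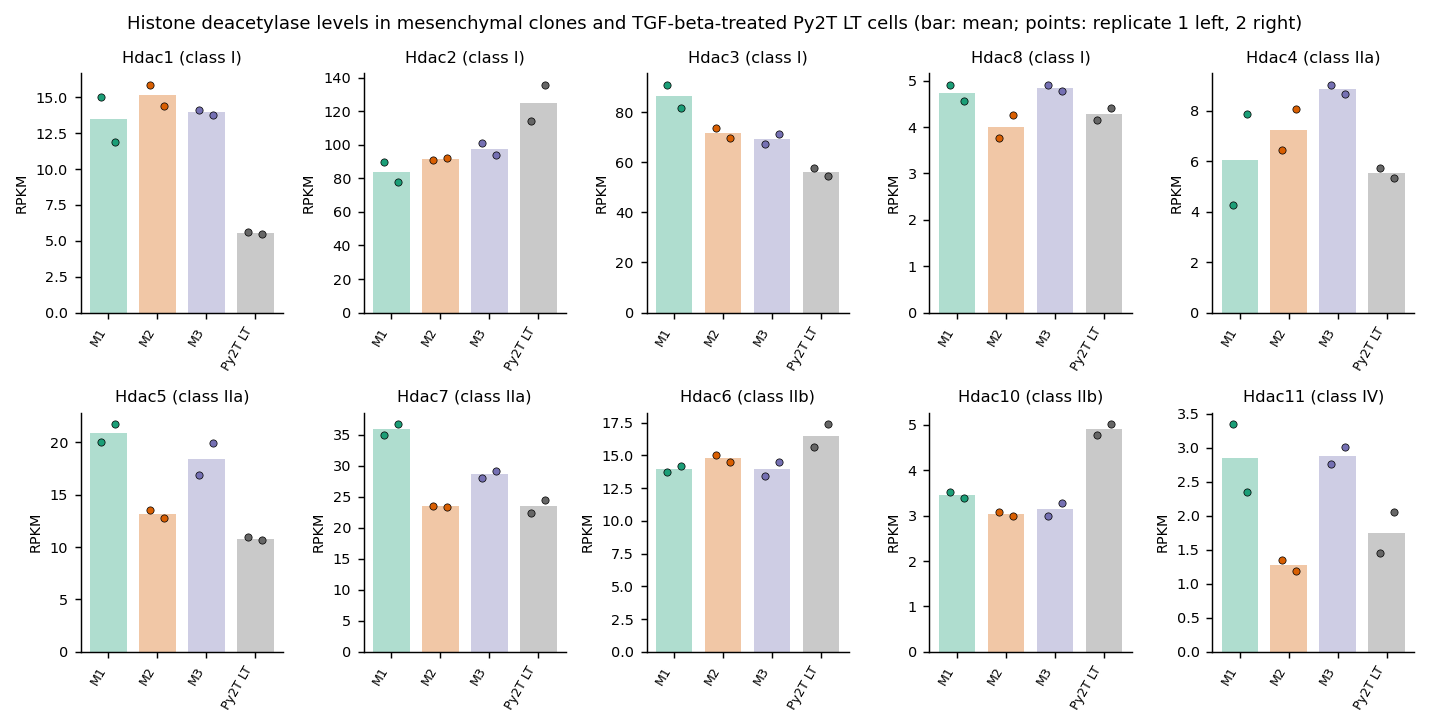
RPKM of each deacetylase gene (vertical axes, starting at 0) in the clones M1, M2 and M3 and in Py2T LT; bars are means of 2 libraries and points the libraries. All 6 clone libraries lie above both Py2T LT libraries for Hdac1 (11.9 to 15.9 RPKM against 5.44 and 5.64) and below them for Hdac2 and Hdac10.

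Stable mesenchymal clones were compared with TGF-beta-treated Py2T LT cells. Hdac1, Hdac3, Hdac5 and Hdac7 were higher in the clones and Hdac2, Hdac6 and Hdac10 lower, while Hdac4, Hdac8 and Hdac11 did not pass the test. The largest difference was that of Hdac1, 2.37-fold. These are 7 of 10 genes, and 65.1% of the 11717 genes tested passed in this comparison, so the share among the deacetylases is near that of all genes. The median log2 difference was 0.26 over the 10 genes and -0.01 over all tested genes. Differences are log2 of normalised RPKM + 0.5 from a limma fit over all genes of the 8 libraries, with Benjamini-Hochberg adjusted p and 0.05 as the threshold. In such bulk samples, fewer cells of a type and less RNA per cell cannot be told apart.

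Among class I enzymes, Hdac1 (gene 433759, GRCm38 chromosome 4, 129516104 to 129542646, minus strand) measured 15.0 and 11.9 RPKM in M1, 15.9 and 14.4 in M2, and 14.1 and 13.8 in M3, against 5.64 and 5.44 RPKM in Py2T LT. The groups did not overlap, and the mean of the clones was higher by 1.25 ± 0.10 on the log2 scale (SE; adjusted p = 8.91e-06). Hdac2 (gene 15182, chromosome 10, 36974297 to 37001889, plus strand) measured 89.7 and 77.6 RPKM in M1, 90.8 and 92.2 in M2, and 101.3 and 93.9 in M3, against 114 and 136 RPKM in Py2T LT. Every clone library lay below both Py2T LT libraries, with a log2 difference of -0.49 ± 0.09 (adjusted p = 0.00173). Hdac3, the catalytic subunit of the NCoR complex, measured 91.0 and 81.5 RPKM in M1, 73.6 and 69.7 in M2, and 67.2 and 71.2 in M3, against 57.9 and 54.5 RPKM in Py2T LT. It was higher in all 6 clone libraries, by 0.39 ± 0.08 (adjusted p = 0.00184). Hdac8 ranged over 3.78 to 4.92 RPKM in the clones and was 4.15 and 4.41 RPKM in Py2T LT, overlapping, with a log2 difference of 0.04 (95% interval -0.18 to 0.27).

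For class IIa, Hdac5 (gene 15184, chromosome 11, 102195747 to 102230172, minus strand) measured 20.0 and 21.8 RPKM in M1, 13.5 and 12.8 in M2, and 16.9 and 19.9 in M3, against 10.9 and 10.7 RPKM in Py2T LT. All clone libraries were above both Py2T LT libraries, by 0.61 ± 0.09 on the log2 scale (adjusted p = 0.000402). Hdac7 (gene 56233, chromosome 15, 97792661 to 97844502, minus strand) measured 35.04 and 36.8 RPKM in M1, 23.5 and 23.4 in M2, and 28.1 and 29.2 in M3, against 22.3 and 24.6 RPKM in Py2T LT. M2 overlapped Py2T LT while M1 and M3 lay above it, and the mean over the clones was higher by 0.27 ± 0.08 (adjusted p = 0.0140). Hdac4 measured 4.25 and 7.87 RPKM in M1, 6.44 and 8.05 in M2, and 9.03 and 8.65 in M3, against 5.74 and 5.33 RPKM in Py2T LT. Its M1 libraries lay on either side of Py2T LT, and its difference of 0.32 (95% interval -0.14 to 0.79) did not pass.

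The class IIb enzymes were lower in the clones. Hdac10 (gene 170787, chromosome 15, 89123303 to 89128700, minus strand) measured 3.52 and 3.38 RPKM in M1, 3.08 and 3.00 in M2, and 2.99 and 3.29 in M3, against 4.77 and 5.02 RPKM in Py2T LT, a log2 difference of -0.57 ± 0.10 (adjusted p = 0.000905). The tubulin deacetylase Hdac6 measured 13.7 and 14.2 RPKM in M1, 15.0 and 14.5 in M2, and 13.4 and 14.5 in M3, against 15.6 and 17.4 RPKM in Py2T LT, a difference of -0.24 ± 0.08 (adjusted p = 0.0344). Neither gene's clone libraries overlapped with Py2T LT. The class IV gene Hdac11 (gene 232232, chromosome 6, 91156670 to 91174692, plus strand) measured 3.35 and 2.35 RPKM in M1, 1.36 and 1.19 in M2, and 2.75 and 3.01 in M3, against 1.45 and 2.06 RPKM in Py2T LT. M1 and M3 were above Py2T LT and M2 below it, and the mean difference of 0.25 (95% interval -0.10 to 0.60) did not pass. Leaving out single libraries ended the calls of Hdac7, at 0.20 (adjusted p = 0.159) without Py2T LT replicate 1, and of Hdac6, with adjusted p of 0.0564 and 0.281 without Py2T LT replicate 1 or 2, 0.0854 and 0.0894 without M2 replicate 1 or 2 and 0.0627 without M3 replicate 1. The Hdac7 call was also lost with each library's GC trend removed (0.21, adjusted p = 0.0728), and that of Hdac6 with scaling by library size only (-0.21, adjusted p = 0.0559). The other 5 calls were kept under every alternative run.

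**Figure D2:**
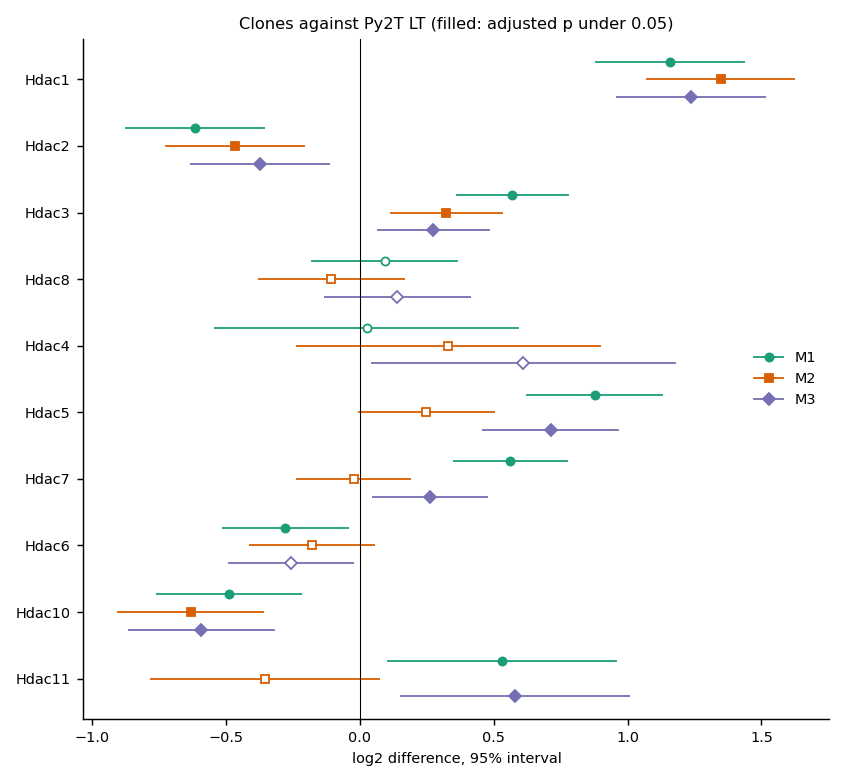
Log2 difference of each deacetylase gene between a clone and Py2T LT (horizontal axis) with its 95% interval; filled symbols had an adjusted p under 0.05. Hdac1 sits above 1 in all 3 clones, while Hdac5, Hdac7 and Hdac11 of M2 sit to the left of those of M1 and M3.

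Each clone was also set against Py2T LT on its own. In M1 8 of 10 deacetylase genes passed (61.0% of all tested genes), in M2 4 of 10 (57.5%) and in M3 7 of 10 (59.6%). Hdac1, Hdac2, Hdac3 and Hdac10 passed in each clone and in the same direction. Hdac1 was 2.23-fold, 2.54-fold and 2.36-fold higher in M1, M2 and M3. Hdac5 passed in M1 (0.88 ± 0.11, adjusted p = 0.000199) and M3 (0.71 ± 0.11, adjusted p = 0.000676), and in M2 its difference was 0.25 (95% interval -0.01 to 0.50). Hdac7 and Hdac11 likewise passed in M1 and M3 with higher levels, and in M2 their differences were -0.02 (95% interval -0.24 to 0.19) and -0.35 (95% interval -0.78 to 0.08). Several of these calls rested on single libraries. In M2, 2 genes passed without Py2T LT replicate 2 or M2 replicate 1, where Hdac2 had an adjusted p of 0.0725 and 0.0598 and Hdac3 of 0.106 and 0.120. In M3, 3 genes passed without M3 replicate 2 and 4 without M3 replicate 1, either Py2T LT library or M2 replicate 1, and the lost calls were among those of Hdac2, Hdac3, Hdac7 and Hdac11. The Hdac7 call in M3 was also lost with the GC trend removed (0.20, adjusted p = 0.154). In M1 the calls of Hdac6 and Hdac11 were each lost in 10 of 17 alternatives, with adjusted p up to 0.243 and 0.245, and Hdac11 had a difference of 0.33 without Py2T LT replicate 1.

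The clones differed among themselves in 3 deacetylase genes. Class IIa Hdac5 and Hdac7 and class IV Hdac11 were lower in M2 than in the mean of M1 and M3, by -0.55 ± 0.10 (adjusted p = 0.00477), -0.44 ± 0.08 (adjusted p = 0.00629) and -0.91 ± 0.16 (adjusted p = 0.00500) on the log2 scale. For each of the 3 genes both M2 libraries, given above, lay below all 4 libraries of M1 and M3. These are 3 of 10 genes, where 24.7% of all tested genes passed, and no class I gene was among them (log2 differences of -0.22 to 0.15). Without M2 replicate 2 none of the 3 passed, with adjusted p of 0.0728, 0.0805 and 0.0608 and differences of -0.51, -0.43 and -0.84, and Hdac7 was also lost without M2 replicate 1 (-0.44, adjusted p = 0.0751). With each library's trend along GC content removed Hdac7 differed by -0.20 (adjusted p = 0.171). M1 and M3 did not differ in any of the 10 genes by limma, against 4.84% of all tested genes, although 3 had an unadjusted p under 0.05 (Hdac3, Hdac4 and Hdac7).

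The promoters of the class IIa pair that was lower in M2 are shown from the RefSeq table (GRCm38.p6) as the 250 bases before a transcript's start, on the gene's strand, with GC boxes (GGGCGG on either strand) in capitals. The Hdac5 window is chr11:102230173-102230422 and the Hdac7 window, before its outermost listed start, is chr15:97844503-97844752, both on the minus strand. The Hdac11 window overlaps an annotated exon and is not printed.
Hdac5: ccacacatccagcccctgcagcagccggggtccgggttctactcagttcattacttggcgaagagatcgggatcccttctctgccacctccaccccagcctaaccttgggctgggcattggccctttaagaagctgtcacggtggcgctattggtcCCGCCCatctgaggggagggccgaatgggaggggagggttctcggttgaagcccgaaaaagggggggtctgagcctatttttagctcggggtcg
Hdac7: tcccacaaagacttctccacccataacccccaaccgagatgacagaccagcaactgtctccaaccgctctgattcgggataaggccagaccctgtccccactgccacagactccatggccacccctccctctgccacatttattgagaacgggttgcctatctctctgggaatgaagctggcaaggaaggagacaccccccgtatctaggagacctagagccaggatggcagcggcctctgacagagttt
The Hdac5 window holds 1 GC box and the Hdac7 window shown none, while 32.7% of the 32851 promoter windows of this length in the table hold at least 1. GC content is 60.8% in the Hdac5 window and 56.4% in the Hdac7 window. The letters CACCTG, an E-box that Snail and Zeb factors can bind, are in neither window on either strand and in 17.2% of all windows. Of 10 windows listed for 7 of the deacetylase genes, 6 held a GC box, 1 of 4 Hdac7 windows among them, and 1, that of Hdac6, an E-box.

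Partners of the deacetylases also differed between clones and Py2T LT, in both directions. Of 12 NuRD subunits 3 were higher and 5 lower, of 13 Sin3 subunits 3 and 2, and of 12 CoREST and MiDAC subunits 3 and 2. Over all tested genes 32.1% were higher and 33.0% lower. Named members of these complexes were the NuRD subunits Mta3 (0.44 ± 0.09, adjusted p = 0.00324) and the helicase Chd3 (-0.79 ± 0.12, adjusted p = 0.000456). Of the Sin3 subunits, Sap130 had a log2 difference of 0.72 ± 0.09 and the scaffold Sin3a one of -0.41 ± 0.09. Among CoREST and MiDAC subunits, Zmym3 had one of 0.74 ± 0.09 and the CoREST-associated Zmym2 one of -1.31 ± 0.12. Of 14 tested class IIa partners and kinases 5 were higher and 2 lower, among them the transcription factor Mef2c (1.70 ± 0.14, adjusted p = 1.04e-05) and the kinase Prkd1, which phosphorylates class IIa enzymes (1.59 ± 0.10, adjusted p = 1.58e-06). Mef2c measured 2.92 and 3.22 RPKM in M1, 1.56 and 1.55 in M2, and 5.37 and 3.77 in M3, against 0.514 and 0.502 RPKM in Py2T LT. Mef2d was lower, by -0.58 ± 0.17.

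Genes of the wider acetylation system were called in both directions as well, beside 32.1% of all tested genes higher and 33.0% lower. Among the 7 sirtuins, which are NAD-dependent deacylases, 2 were higher in the clones and 3 lower, with Sirt5 at 0.73 ± 0.12 and Sirt6 and Sirt1 at -0.83 ± 0.10 and -0.72 ± 0.10 on the log2 scale. Of 11 lysine acetyltransferases 2 were higher and 2 lower, namely the tubulin acetyltransferase Atat1 (0.95 ± 0.11) and Hat1 (0.48 ± 0.10), and Kat8 (-0.83 ± 0.09) and Crebbp (-0.56 ± 0.18). Of 3 tested BET readers of acetyl-lysine, Brd2 was higher (0.47 ± 0.07) and Brd3 lower (-0.31 ± 0.08). Of 6 genes known to rise with deacetylase inhibitors, 4 were lower and 1 higher in the clones, with Clu, which encodes the chaperone clusterin, at 26.7 to 39.3 RPKM in the clones against 1210.0 and 921 RPKM in Py2T LT. For the pattern of Hdac1 over the 8 RPKM libraries, the 3 most similar genes by Pearson correlation were Perp (0.996), 1700052K11Rik (0.995) and Msra (0.995), as a description over libraries that fall into clones and Py2T LT.

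CI994 treatment was compared with no CI994 within each shRNA line, to ask how the RNA of the deacetylases changes when class I enzymes are inhibited. Hdac11 and Hdac1 were higher with CI994. Hdac11 passed in all 3 lines, with 3.06-fold, 1.88-fold and 1.97-fold higher levels in shTet2, shMbd3 and shControl. Hdac1 passed in shMbd3 and shControl, and Hdac7 in shControl. No deacetylase gene passed with a lower level in the fit with all 12 libraries. In shTet2 1 of 10 genes passed (24.2% of the 12808 tested genes), in shMbd3 2 of 10 (12.6%) and in shControl 3 of 10 (33.5%).

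**Figure D3:**
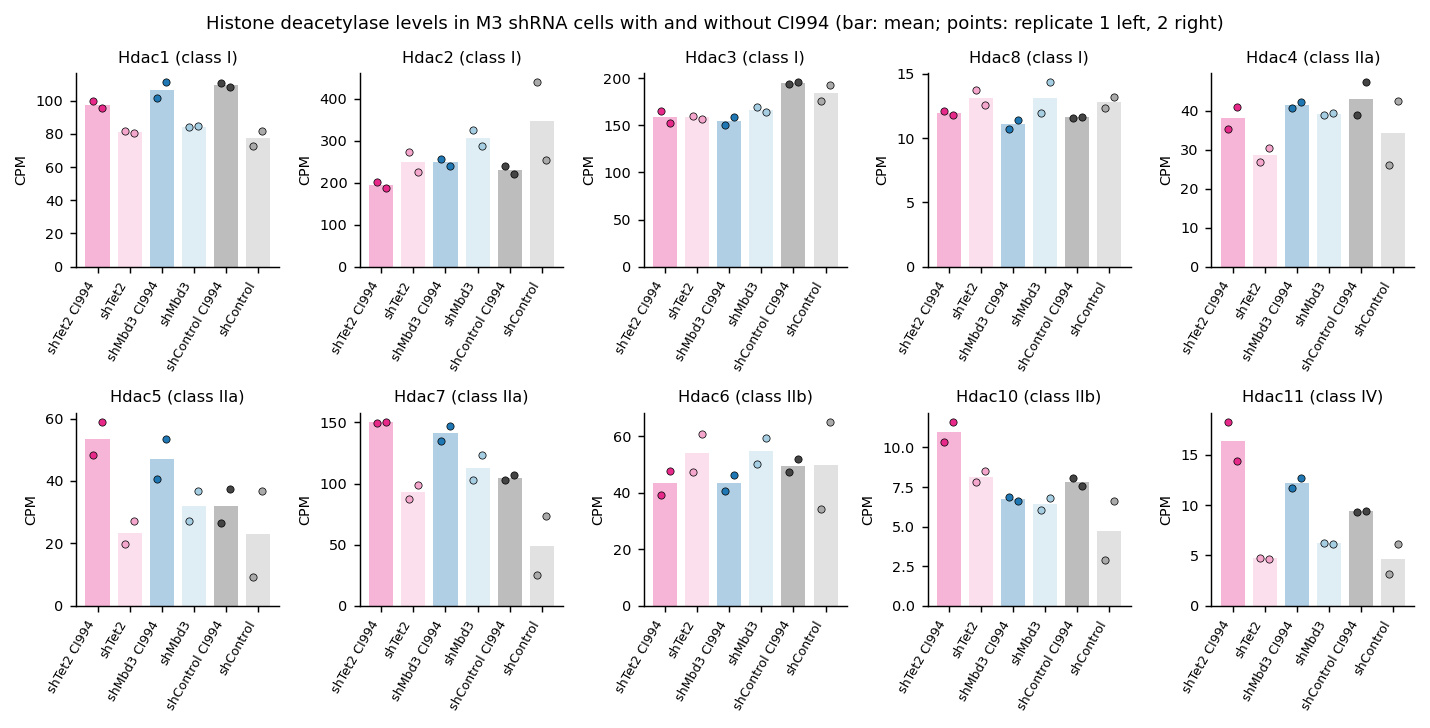
CPM of each deacetylase gene (vertical axes, starting at 0) in M3 cells with shTet2, shMbd3 or shControl, each with CI994 left of the same line without it; bars are means of 2 libraries and points the libraries. For Hdac1 and Hdac11 all 6 libraries with CI994 lie above all 6 without it, and the untreated shControl points lie far apart for Hdac2, Hdac5 and Hdac7.

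Hdac11, a fatty deacylase outside the class that CI994 inhibits, measured 18.3 and 14.4 CPM in shTet2 with CI994, against 4.72 and 4.68 CPM in shTet2. In shMbd3 it measured 11.7 and 12.7 CPM with CI994, against 6.26 and 6.16 CPM without, and in shControl 9.29 and 9.46 CPM with CI994, against 6.13 CPM in replicate 2 and 3.16 CPM in the library labelled replicate 1. No library with CI994 overlapped with one without. Log2 differences were 1.62 ± 0.23 (adjusted p = 0.00170), 0.91 ± 0.23 (adjusted p = 0.0333) and 0.98 ± 0.23 (adjusted p = 0.0147) in shTet2, shMbd3 and shControl. With the library labelled M3 shControl replicate 1 left out, the 3 differences were 1.62 ± 0.13, 0.91 ± 0.13 and 0.60 ± 0.16, with adjusted p of 7.56e-06, 0.000473 and 0.0195. The call in shTet2 was kept under every alternative. The call in shControl was lost without either shControl CI994 library (adjusted p of 0.0785 and 0.0773) and with the GC trend removed (0.38, adjusted p = 0.0577). In shMbd3 it was lost without any 1 of 8 libraries, with adjusted p up to 0.168 without shMbd3 CI994 replicate 2. Antisense transcripts Gm14573 and Gm44002 overlap Hdac11, and whether reads were counted by strand is not given in the sources used here.

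Hdac1, a target of the compound, measured 100.03 and 95.4 CPM in shTet2 with CI994, against 82.0 and 80.2 CPM in shTet2. In shMbd3 it measured 102 and 111 CPM with CI994, against 83.9 and 84.5 CPM without, and in shControl 111 and 108 CPM with CI994, against 81.8 CPM in replicate 2 and 72.8 CPM in the library labelled replicate 1. The 6 libraries with CI994 all lay above the 6 without. The log2 difference was 0.47 ± 0.09 in shControl (adjusted p = 0.00666), 0.32 ± 0.09 in shMbd3 (adjusted p = 0.0480) and 0.19 in shTet2 (95% interval -0.01 to 0.40). Hdac1 passed in all 3 lines once the library labelled M3 shControl replicate 1 was left out, with 0.45, 0.32 and 0.19 in shControl, shMbd3 and shTet2 (adjusted p of 0.00236, 0.00314 and 0.0281). The shControl call was lost without shControl CI994 replicate 1 (adjusted p = 0.0589), and the shMbd3 call without any 1 of 10 libraries, with adjusted p up to 0.270.

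The other class I genes did not pass with all 12 libraries. Hdac2 measured 200.4 and 188 CPM in shTet2 with CI994, against 273 and 226 CPM in shTet2. In shMbd3 it measured 256 and 240.0 CPM with CI994, against 324 and 288 CPM without, and in shControl 240.2 and 220.4 CPM with CI994, against 255 CPM in replicate 2 and 438 CPM in the library labelled replicate 1. The treated libraries lay below the untreated ones within each line. Without the library labelled M3 shControl replicate 1 Hdac2 was lower with CI994 in shTet2 (-0.43 ± 0.10, adjusted p = 0.00481) and shMbd3 (-0.31 ± 0.10, adjusted p = 0.0335), and its difference in shControl was -0.12 (95% interval -0.40 to 0.16). Hdac3 measured 165 and 153 CPM in shTet2 with CI994 against 159.7 and 157 CPM without, 151 and 159 CPM in shMbd3 with CI994 against 169 and 164 CPM without, and 194 and 196 CPM in shControl with CI994 against 176 and 193 CPM without. Its log2 differences ran over -0.12 to 0.05. Hdac8 ranged over 10.7 to 12.1 CPM in the 6 libraries with CI994 and 11.9 to 14.3 CPM in the 6 without, with differences of -0.24 to -0.16.

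In class IIa, Hdac7 measured 149.8 and 150.5 CPM in shTet2 with CI994, against 87.1 and 98.4 CPM in shTet2. It measured 135 and 147 CPM in shMbd3 with CI994, against 103 and 123 CPM without, and 103 and 107 CPM in shControl with CI994, against 73.7 CPM in replicate 2 and 24.9 CPM in the library labelled replicate 1. Treated libraries were above untreated ones in each line. The shControl difference was 1.24 ± 0.35 (adjusted p = 0.0269), but 0.53 ± 0.11 (adjusted p = 0.00400) without the library labelled M3 shControl replicate 1, and it did not pass without either shControl CI994 library (adjusted p of 0.105 and 0.117). Without that untreated library Hdac7 also passed in shTet2 (0.62 ± 0.09, adjusted p = 0.000169) and shMbd3 (0.31 ± 0.09, adjusted p = 0.0144), though in shMbd3 the difference was -0.038 with the GC trend removed. Hdac7 overlaps the protein-coding gene Slc48a1 on the other strand.

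Hdac5 measured 48.2 and 59.0 CPM in shTet2 with CI994, against 19.7 and 27.2 CPM in shTet2. In shMbd3 it measured 40.7 and 53.5 CPM with CI994, against 27.2 and 36.7 CPM without, and in shControl 26.4 and 37.6 CPM with CI994, against 36.7 CPM in replicate 2 and 9.34 CPM in the library labelled replicate 1. Treated and untreated libraries were apart in both knockdown lines and overlapped in shControl. None of the 3 differences passed with all 12 libraries, and that in shTet2 passed without the library labelled M3 shControl replicate 1 (1.11 ± 0.20, adjusted p = 0.000953). In shControl the difference of Hdac5 was 0.71 with that library and -0.19 without it. In the latter, replicate 2 alone stood for untreated shControl, and Hdac5 was higher in replicate 2 than in replicate 1 of every CPM group. The replicate 2 libraries of shControl measured 37.6 CPM with CI994 and 36.7 CPM without. Hdac4 measured 35.5 and 40.9 CPM in shTet2 with CI994, against 26.8 and 30.5 CPM in shTet2, and its difference of 0.34 passed there without that library as well (adjusted p = 0.0181). So did the class IIb genes Hdac10 (10.4 and 11.6 CPM with CI994, against 7.79 and 8.52 CPM in shTet2; 0.34, adjusted p = 0.0400, and -0.025 with the GC trend removed from all 12 libraries) and Hdac6 (39.2 and 47.7 CPM with CI994, against 47.5 and 60.9 CPM in shTet2; -0.38, adjusted p = 0.0260). Libraries of Hdac6 with and without CI994 overlapped. In all, 8 of 10 genes passed in shTet2, 4 in shMbd3 and 3 in shControl without the library labelled M3 shControl replicate 1, beside 57.7%, 42.1% and 29.7% of all tested genes.

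**Figure D4:**
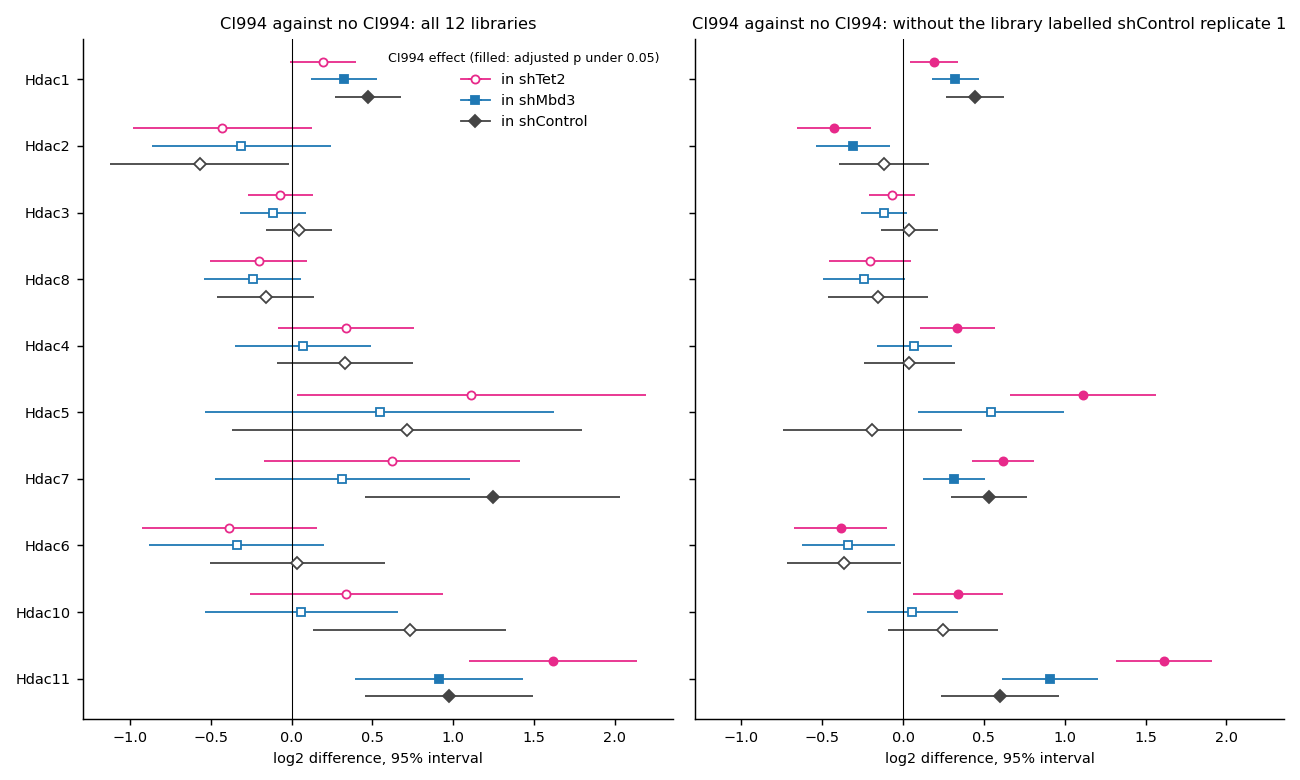
Log2 difference between CI994 and no CI994 of each deacetylase gene (horizontal axis, 95% intervals) in shTet2, shMbd3 and shControl, from the fit of all 12 CPM libraries on the left and without the library labelled M3 shControl replicate 1 on the right; filled symbols had an adjusted p under 0.05. The intervals of Hdac5 and Hdac7 are shorter on the right, and 15 of 30 symbols are filled there against 6 on the left.

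Whether the response to CI994 differed between lines was tested as the interaction of knockdown and compound. By limma with all 12 libraries 0 of 10 deacetylase genes passed for shTet2 (0.687% of all tested genes) and 0 of 10 for shMbd3 (0.0781%), and none had an unadjusted p under 0.05. EdgeR and DESeq2 on the recovered reads also called 0. The difference between the CI994 effects in shTet2 and shMbd3, added after the data were seen, gave 0 of 10 as well (0.0312%), with Hdac11 at 0.71 (95% interval -0.03 to 1.44). Without the library labelled M3 shControl replicate 1, replicate 2 alone stood for untreated shControl. The shTet2 interaction was then 1.30 for Hdac5 and 1.02 for Hdac11. That of Hdac5 was 0.40 with all libraries and -0.50 without shControl replicate 2. Hdac5 was higher in replicate 2 than in replicate 1 of every CPM group. With 1 untreated shControl library left, that offset does not cancel in the interaction.

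The knockdowns were compared with shControl without CI994. With all 12 libraries shTet2 had higher Hdac7 and Hdac10, 2 of 10 genes (23.2% of all tested genes), and shMbd3 had higher Hdac7, 1 of 10 (32.1%). Hdac7 measured 87.1 and 98.4 CPM in shTet2 and 103 and 123 CPM in shMbd3, against 73.7 CPM in shControl replicate 2 and 24.9 CPM in the library labelled replicate 1. All knockdown libraries were above both, and the log2 differences were 1.13 ± 0.35 in shTet2 (adjusted p = 0.0454) and 1.32 ± 0.35 in shMbd3 (adjusted p = 0.0209). Leaving out the library labelled M3 shControl replicate 1, they were 0.42 ± 0.11 (adjusted p = 0.0117) and 0.61 ± 0.11 (adjusted p = 0.00139). Hdac10 measured 7.79 and 8.52 CPM in shTet2, against 6.61 and 2.88 CPM in shControl, with a difference of 0.85 ± 0.26 (adjusted p = 0.0461) that became 0.37 (adjusted p = 0.0930) without the library labelled M3 shControl replicate 1. Both shTet2 calls were also lost when any 1 of the 10 libraries outside untreated shControl was left out, with adjusted p up to 0.201, and the shMbd3 call of Hdac7 without shMbd3 replicate 1 (0.0774) or 2 (0.113). Hdac4 was lower in shTet2 without the library labelled M3 shControl replicate 1 (-0.48 ± 0.13, adjusted p = 0.0153), at 26.8 and 30.5 CPM in shTet2 against 42.6 CPM in shControl replicate 2. With all libraries its difference was -0.19, and 0.11 without shControl replicate 2.

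The summed epithelial markers were higher in shTet2, at 3555 to 4014 CPM, than in the shControl libraries, at 2482 CPM and 973 CPM. In shMbd3 they summed to 2555 to 2621 CPM, close to the higher of the shControl libraries. With all 12 libraries 5 of the 6 markers passed as higher in shTet2 and 4 in shMbd3. Over all tested genes 10.5% were higher and 12.7% lower in shTet2, and 15.6% and 16.6% in shMbd3. Of 6 mesenchymal markers 1 was higher and 3 lower in shTet2, and 2 and 4 in shMbd3, with sums of 4984 to 5236 CPM in shTet2 and 5156 to 5311 CPM in shMbd3, against 6864 to 9093 CPM in shControl. Leaving out the library labelled M3 shControl replicate 1, 6 epithelial markers were higher and 0 lower in shTet2, and 4 and 1 in shMbd3, while 1 mesenchymal marker was higher and 4 lower in shTet2, and 2 and 4 in shMbd3. The shares of all tested genes without that library are given below with the counts of the gene lists. What part the epithelial and mesenchymal markers had in the results was not tested.

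Class I genes did not pass in either knockdown line. Hdac1 differed by 0.10 (95% interval -0.10 to 0.31) in shTet2 and 0.07 (-0.14 to 0.27) in shMbd3, although shMbd3 lowers a subunit of the NuRD complex that holds Hdac1 and Hdac2. Hdac2 differed by -0.39 (-0.95 to 0.16) and -0.19 (-0.74 to 0.37), and Hdac3 by -0.19 (-0.39 to 0.02) and -0.20 (-0.41 to 0.00). Between shTet2 and shMbd3 directly, 0 of 10 genes passed by limma, none had an unadjusted p under 0.05, and edgeR and DESeq2 called 0, while 19.1% of all tested genes passed. Without the library labelled M3 shControl replicate 1, Hdac10 was higher (0.41, adjusted p = 0.0223) and Hdac4 lower (-0.36, adjusted p = 0.0157) in shTet2 than in shMbd3. These are 2 of 10 genes, beside 45.1% of all tested genes at that setting.

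Within CI994, where all libraries had Mbd3 and Tet2 as their labels say, Hdac3 was lower in shMbd3 than in shControl. It measured 151 and 159 CPM in shMbd3 with CI994, against 194 and 196 CPM in shControl with CI994, without overlap, a log2 difference of -0.37 ± 0.09 (adjusted p = 0.0204), the 1 gene of 10 that passed (18.9% of all tested genes). In shTet2 with CI994 Hdac3 measured 165 and 153 CPM, and its difference of -0.30 ± 0.09 did not pass (adjusted p = 0.0513). The shMbd3 call was lost without any 1 of the 4 libraries compared, with adjusted p of 0.0895 to 0.126. For shTet2 0 of 10 genes passed by limma (15.8% of all tested genes), 2 had an unadjusted p under 0.05 (Hdac3 and Hdac11), edgeR called 0 and DESeq2 2. Without the library labelled M3 shControl replicate 1, shTet2 had 5 of 10 genes passing, beside 40.7% of all tested genes. That library is not among those compared but enters the shared spread. Hdac5, Hdac7, Hdac10 and Hdac11 were higher (0.74, 0.51, 0.46 and 0.75) and Hdac3 lower (-0.30). For shMbd3 2 of 10 genes passed, beside 44.0% of all tested genes, with Hdac7 higher (0.39, adjusted p = 0.00397) and Hdac3 lower (adjusted p = 0.00108).

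**Figure D5:**
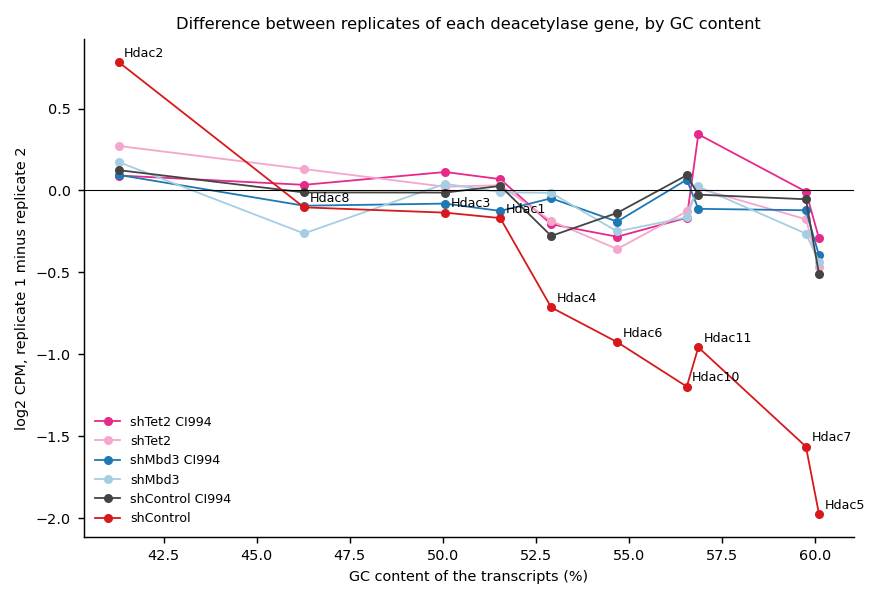
Log2 CPM of replicate 1 minus replicate 2 for each deacetylase gene (vertical axis) against the GC content of its transcripts in % (horizontal axis), 1 line per pair of libraries. The shControl pair falls to -1.98 at Hdac5 and stands at 0.78 at Hdac2, while the other 5 pairs stay between -0.51 and 0.34.

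The spread between the untreated shControl libraries ran along GC content in the deacetylase genes too. Hdac2, with the lowest GC content of the 10 (41.3%), was 1.72-fold higher in the library labelled replicate 1, and Hdac5, with the highest (60.1%), was 3.93-fold higher in replicate 2. Pearson's correlation between GC content and the log2 ratio of the replicates was -0.96 over the 10 genes of this pair, which share both libraries, and lay between -0.81 and -0.33 in the other 5 CPM pairs. In no other CPM pair did a deacetylase gene differ by more than 1.42-fold between replicates. The part of GC content in the differences from untreated shControl was not tested beyond the removal of the trend. The group means of the CPM libraries spanned 1.75 on the log2 scale for Hdac7 and 1.725 for Hdac11, and 1.04 and 1.62 without the library labelled M3 shControl replicate 1, so the place of Hdac7 as the widest of the 10 genes rests on that library. For Hdac7 the most similar patterns over the 12 libraries were those of Zfp593 (r = 0.995), Tmem115 (0.993) and Ssh3 (0.993). These correlations also rest on the library labelled M3 shControl replicate 1, where Hdac7 was lowest, and are not given without it.

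Of 5 tested genes known to rise with deacetylase inhibitors, 3 were higher with CI994 in shTet2, 3 in shMbd3 and 5 in shControl, and none passed with a lower level. Over all tested genes 12.4%, 7.45% and 18.0% were higher and 11.8%, 5.14% and 15.5% lower in shTet2, shMbd3 and shControl. The linker histone gene H1f0 measured 253 and 292 CPM in shTet2 with CI994 against 98.5 and 110.0 CPM in shTet2, a log2 difference of 1.31 ± 0.17 (adjusted p = 0.00104). It differed by 1.43 ± 0.17 in shMbd3 (adjusted p = 0.00120) and 1.38 ± 0.17 in shControl (adjusted p = 0.000922). Txnip, a thioredoxin inhibitor, had differences of 1.62 ± 0.25 in shTet2 and 1.92 ± 0.25 in shMbd3, and the cell cycle inhibitor Cdkn1a one of 0.74 ± 0.13 in shControl. Leaving out the library labelled M3 shControl replicate 1, the counts were 5, 5 and 4 of 5 in shTet2, shMbd3 and shControl, where 29.1%, 21.6% and 16.1% of all tested genes were higher and 28.5%, 20.4% and 13.5% lower. CI994 also moved with the macrophage gene Cd68, at most 16.6 CPM with CI994 and 3.12 CPM without, and Lyz2, while the other 3 haematopoietic markers (Ptprc, Cd3e and Cd79a) had at most 0.378 CPM in any library, and the whole list of 5 summed to 10.4 to 20.6 CPM with CI994 against 1.21 to 3.68 CPM without. Of 6 epithelial markers 2, 1 and 6 were higher with CI994 in shTet2, shMbd3 and shControl and none lower, and 3, 3 and 6 were higher and 0, 1 and 0 lower without the library labelled M3 shControl replicate 1. Of 6 mesenchymal markers 3 were higher and 1 lower in shTet2, 1 and 0 in shMbd3, and 1 and 0 in shControl, against 4 and 2, 3 and 1, and 2 and 0 without that library. Their sum was 9702 to 10940 CPM in shTet2 with CI994 against 4984 to 5236 CPM in shTet2, 6325 to 6716 CPM in shMbd3 with CI994 against 5156 to 5311 CPM in shMbd3, and 11630 to 11698 CPM in shControl with CI994 against 6864 to 9093 CPM in shControl. The part of these markers in the results was not tested.

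Other acetylation genes changed with CI994 as well. The NAD-dependent deacetylase Sirt1 measured 27.3 and 31.6 CPM in shTet2 with CI994 against 61.3 and 67.1 CPM without, 40.7 and 40.0 CPM in shMbd3 with CI994 against 69.5 and 76.0 CPM without, and 25.6 and 35.4 CPM in shControl with CI994 against 100.9 and 76.4 CPM without. It was lower in each line, with log2 differences of -1.19 ± 0.19, -0.85 ± 0.19 and -1.56 ± 0.19 (adjusted p of 0.00301, 0.0210 and 0.000923). Of 7 sirtuins 1 was higher and 1 lower in shTet2 (Sirt2 and Sirt1), 0 and 1 in shMbd3, and 3 and 1 in shControl. For these lists the shares over all tested genes were 12.4%, 7.45% and 18.0% higher and 11.8%, 5.14% and 15.5% lower in the same order. Lysine acetyltransferases fell where they passed, 3, 3 and 2 of 11 in shTet2, shMbd3 and shControl, with Kat6b at -0.42, -0.60 and -0.58. The BET gene Brdt was higher in both knockdown lines (1.16 ± 0.18 and 1.22 ± 0.18), 1 of 4 readers in each, and 0 of 4 passed in shControl. Leaving out the library labelled M3 shControl replicate 1, 4 sirtuins were higher and 1 lower in shTet2, 3 and 1 in shMbd3, and 3 and 1 in shControl, 6, 6 and 5 acetyltransferases were lower and none higher, and 2, 2 and 0 BET genes were higher and none lower.

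Complex subunits were called in both directions with CI994. Among all tested genes 12.4%, 7.45% and 18.0% were higher and 11.8%, 5.14% and 15.5% lower in shTet2, shMbd3 and shControl. The shares without the library labelled M3 shControl replicate 1 are given above with the genes known to rise with inhibitors. Of 12 NuRD subunits 1 was higher and 2 lower in shTet2, 0 and 1 in shMbd3, and 3 and 0 in shControl, where Chd3 had a difference of 0.86 ± 0.18. These 12 include Mbd3, whose level goes against the label in the library labelled M3 shControl replicate 1. Of 13 Sin3 subunits 1 was higher and 2 lower in shTet2, 1 and 0 in shMbd3, and 0 and 2 in shControl, with Sap18 at 1.03 ± 0.12 in shTet2 and 0.65 ± 0.12 in shMbd3. Of 12 CoREST and MiDAC subunits 1 was higher and 2 lower in shTet2, 0 and 1 in shMbd3, and 1 and 1 in shControl. Rcor3 was lower in each line, by -0.67 ± 0.13, -0.52 ± 0.13 and -0.63 ± 0.13 in shTet2, shMbd3 and shControl. Among 14 tested class IIa partners and kinases 3 were higher and 3 lower in shTet2, 1 and 1 in shMbd3, and 2 and 5 in shControl. The kinase Camk2d was lower in all 3, by -1.35 ± 0.14, -0.99 ± 0.14 and -1.57 ± 0.14, while Mef2c was higher in shMbd3 (0.76 ± 0.21, adjusted p = 0.0499). Leaving out the library labelled M3 shControl replicate 1, 5 NuRD subunits were higher and 5 lower in shTet2, 2 and 3 in shMbd3, and 2 and 0 in shControl. The Sin3 counts were then 3 higher and 6 lower in shTet2, 3 and 2 in shMbd3, and 0 and 1 in shControl, and those of CoREST and MiDAC 2 and 3, 2 and 1, and 1 and 1 in the same order. Class IIa partners and kinases had 5 higher and 4 lower in shTet2, 5 and 5 in shMbd3, and 0 and 6 in shControl.

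Between knockdowns and shControl without CI994, Mef2c was lower in shTet2, at 2.83 and 4.23 CPM against 15.6 and 14.9 CPM in shControl (-1.96 ± 0.21, adjusted p = 0.000278), and the kinase Camk4 was lower in both lines (-1.98 ± 0.18 in shTet2 and -1.61 ± 0.18 in shMbd3). In this list of class IIa partners and kinases 0 were higher and 3 lower of 14 in shTet2, and 2 and 6 in shMbd3, where Sik1 rose by 1.21 ± 0.25. Of 12 NuRD subunits 0 passed in shTet2, against 4 higher and 2 lower in shMbd3, with Mta2 (0.42 ± 0.09) and Mta3 (0.68 ± 0.15) higher and Cdk2ap1 (-0.37 ± 0.11) and Rbbp4 (-0.43 ± 0.14) lower. Wherever NuRD subunits are counted, the 12 include Mbd3, the gene that shMbd3 targets. Its level goes against the label in the library labelled M3 shControl replicate 1. Rbbp4 differed by -0.18 (adjusted p = 0.0839) without the library labelled M3 shControl replicate 1. Sin3 subunits passed in 0 of 13 cases in shTet2, and 1 was higher and 2 lower in shMbd3. CoREST and MiDAC subunits had 1 lower of 12 in shTet2 and 2 lower in shMbd3, with Trerf1 at -1.13 ± 0.23 and -1.56 ± 0.23. Of 7 sirtuins 1 was lower in shTet2 (Sirt5, -0.98 ± 0.22) and 1 higher in shMbd3 (Sirt7, 1.31 ± 0.36), and of 11 acetyltransferases 1 was lower in shTet2 and 2 higher and 2 lower in shMbd3, among them Ep300 (-0.52 ± 0.09). Brdt was the 1 lower BET gene of 4 in shTet2 (-1.29 ± 0.18) and was lower in shMbd3 (-1.34 ± 0.18), where Brd3 was higher. Of 5 tested genes known to rise with inhibitors, Cdkn1a and Gsn were higher in shTet2, and in shMbd3 2 were higher and 3 lower. Over all tested genes 10.5% were higher and 12.7% lower in shTet2, and 15.6% and 16.6% in shMbd3.

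Counts of these lists also moved without the library labelled M3 shControl replicate 1, where 16.4% of all tested genes were higher and 16.3% lower in shTet2, and 17.2% and 17.1% in shMbd3. Class IIa partners and kinases then had 2 higher and 3 lower in shTet2, and 5 and 4 in shMbd3. The NuRD counts were 1 higher and 0 lower in shTet2, and 4 and 3 in shMbd3. Sin3 subunits had 1 higher and 1 lower in shTet2, and 3 and 1 in shMbd3, and CoREST and MiDAC subunits 1 and 2 in shTet2, and 0 and 3 in shMbd3. Of the sirtuins 0 were higher and 1 lower in shTet2, and 1 and 0 in shMbd3, and of the acetyltransferases 1 and 3 in shTet2, and 3 and 2 in shMbd3. The BET genes had 0 higher and 2 lower in shTet2, and 1 and 1 in shMbd3, and the inhibitor-responsive genes 2 and 0 in shTet2, and 2 and 3 in shMbd3.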

How the data were processed

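RNA was sequenced from 20 libraries, 10 groups of 2, with a stranded total RNA kit per the labels' protocols. Reads were aligned with STAR to mm10, per the submitters' processing notes. The counting step, its use of strand and the annotation are not given in the sources used here. The authors deposited RPKM values for 8 libraries, and from the values alone RPKM and FPKM cannot be told apart. The authors deposited CPM values for 12 libraries, and 100.0% of them were whole reads within 0.01 reads. A further 7 columns in one table repeated other files. Gene IDs were matched to symbols for 99.7% of genes.

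Each table was normalised and tested separately. Genes were kept where 2 libraries reached 1 RPKM or 0.5 CPM (11717 and 12808 genes), and log2(value divided by the TMM factor + 0.5) was fitted by group over all libraries of the table with limma 3.58.1 (mean trend, robust) in R 4.3.3, with Benjamini-Hochberg adjustment over all tested genes. Such fold changes understate those of low genes. Alternatives were edgeR 4.0.16 and DESeq2 1.42.0 on the recovered reads, other scalings, pseudocounts and filters, removal of a GC trend (lowess span 0.3), a replicate block, only the groups compared, and each library left out. The script was tested on simulated data. All 10 deacetylase genes were described, with up to 2 higher and 2 lower genes of smallest adjusted p per list and comparison, and the 3 most similar patterns for the member with the widest range in each table. The members and lists were chosen with earlier results of these data known. One list of corepressor subunits is not reported here.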

Additional observations from a re-analysis of the deposited data

Results flagged for a closer look

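Under the same contrast with Py2T LT, the clones differed in 3 deacetylase genes by a test of the difference between clones itself. M2 stood below the mean of M1 and M3 by -0.55 for Hdac5, -0.44 for Hdac7 and -0.91 for Hdac11 on the log2 scale (limma, adjusted p of 0.00477, 0.00629 and 0.00500), in 2 of 2 M2 libraries each. These are 3 of 10 genes, and 24.7% of all tested genes passed in this comparison. The calls were not kept without M2 replicate 2, where the differences were -0.51, -0.43 and -0.84. That of Hdac7 was also lost with the GC trend removed (-0.20, adjusted p = 0.171 by limma).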

How the results depend on the processing

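Of 39 called differences of deacetylase genes, 16 were kept under every alternative and none changed sign. Leaving out single libraries gave 5 to 8 called genes for the clones against Py2T LT, 6 to 9 for M1, 2 to 6 for M2, 3 to 9 for M3, 0 to 3 for M2 against M1 and M3 and 0 to 2 for M1 against M3. It gave 0 to 6 for shTet2, 0 to 8 for shMbd3, and with CI994 0 to 8 in shControl, 1 to 8 in shTet2 and 0 to 4 in shMbd3. Within CI994 it gave 0 to 5 for shTet2 and 0 to 2 for shMbd3, 0 to 2 for shTet2 against shMbd3, 0 to 5 and 0 to 6 for the interactions with shTet2 and shMbd3, and 0 for their difference. With only the groups compared, the counts were 0 for shTet2, shMbd3 and CI994 in shControl, where 329, 377 and 13 of all genes passed. They were 6 for CI994 in shTet2, CI994 in shMbd3 and shTet2 within CI994, 3 for shMbd3 within CI994 and 2 for shTet2 against shMbd3. For the other counts of deacetylase genes in this paragraph the share of all genes at the same setting is not given. Whether they follow that share is therefore not shown. The replicate numbers were not treated as pairs, because the labels do not say that a number marks a shared experiment and not every pair of groups had deviations of same-numbered libraries that correlated by over 0.1. Among the CPM groups 14 of 15 pairs did (lowest 0.095) and among the RPKM groups 1 of 6. With a replicate block they were 5 for CI994 in shControl, 2 for CI994 in shTet2 and 1 for shTet2 within CI994. Removing the GC trend gave 3 for shMbd3, 2 each for CI994 in shTet2, shTet2 within CI994 and shTet2 against shMbd3, and 1 for the shTet2 interaction. The GC trend with the replicate block gave 4 for shTet2, CI994 in shMbd3 and shTet2 within CI994, 3 for shMbd3, CI994 in shTet2 and shTet2 against shMbd3, and 2 for shMbd3 within CI994 and the shTet2 interaction. For shTet2 library size only, no filter and edgeR gave 0, no filter gave 1 for CI994 in shMbd3, DESeq2 gave 2 for CI994 in shTet2 and for shTet2 within CI994, and a pseudocount of 1 gave 1 for the last. Signs turned for differences that had not passed: with the GC trend removed, with or without the block, Hdac10 with CI994 in shTet2 was -0.025 and Hdac7 with CI994 in shMbd3 -0.038. Hdac4 in shTet2 ranged over -0.48 to 0.11 without shControl replicate 1 or 2, and the Hdac5 interaction with shTet2 over -0.50 to 1.30. Causes were not tested. Counts over all genes ranged over 937 to 4374 for M2 against M1 and M3 (2899), 111 to 3307 for M1 against M3 (567), 329 to 8063 for shTet2 (2973), 377 to 8673 for shMbd3 (4117), 13 to 8953 for CI994 in shControl (4290), 854 to 7365 in shTet2 (3104) and 436 to 5368 in shMbd3 (1612). They ranged over 944 to 5193 and 1233 to 5613 within CI994 (2022 and 2421), 1036 to 5753 for shTet2 against shMbd3 (2446), and 0 to 4791, 0 to 6243 and 0 to 536 for the interactions and their difference (88, 10 and 4). At these depths 3 reads are 0.120 to 0.186 CPM, far below every deacetylase value.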
